A study of Rattus norvegicus with 30 samples.

Results

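The liver of young rats fed R-α-lipoic acid (LA) was compared with the liver of young rats fed the same diet without it. The samples were chosen by their titles: 8 arrays named as young control and 8 named as young LA, 16 of the 30 arrays of the series. Every animal was a male rat of the inbred F344 strain, 3 months old, kept for 2 weeks on the purified AIN-93M diet in a modified pair-feeding scheme, and the LA diet held 0.2% of the R form of α-lipoic acid by weight. Total RNA of the median liver lobe of 1 animal went onto 1 Affymetrix array of the rat genome. The series also held livers of rats aged 24 months, 8 on the control diet and 6 on LA, which enter here where the LA effect was set beside that of the young. When each animal last ate and was killed, and which animals were pair-fed partners, are not given in the sources used here, so a shift in feeding or collection time cannot be told apart from LA itself.

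Lipoic acid is a cyclic disulfide that is also sold as a supplement. Its lipoyl group, which liver mitochondria make, is bound to the dehydrogenase complexes that burn pyruvate, 2-oxoglutarate, branched-chain keto acids and glycine. The liver clock is a loop in which BMAL1, with CLOCK or NPAS2, switches on genes for its own repressors (the PER and CRY proteins, REV-ERBα and REV-ERBβ) and for output factors such as DBP, so that Bmal1 and Dbp RNA peak at opposite times of day. Feeding sets the phase of this loop in liver, and the same organ turns dietary sugar into fat through SREBP-1c and ChREBP, which drive the genes of fatty acid synthesis.

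The values were GCRMA log2 intensities, in which a step of 1 is a doubling. The 16 arrays had medians of 5.2 to 5.29. Values under 4 were treated as background (the floor), and 60.8% to 62.8% of the probe sets read above it. No arrays held identical values. A linear model in limma tested 10589 genes, each through its brightest probe set, and differences below are LA minus control on the log2 scale ± SE with Benjamini-Hochberg adjusted p-values. LA changed 1730 genes at an adjusted p under 0.05, which is 16.3% of those tested, with 878 higher (8.29%) and 852 lower (8.05%), and 3024 genes had an unadjusted p under 0.05. Of the 1730, 157 moved by more than 2-fold, 82 upward and 75 downward. All 8 LA animals lay above all 8 controls in 185 genes (1.75%) and below them in 196 genes (1.85%). The first principal component, with 36% of the variance, separated the diets, with the LA animals between 11.4 and 20.5 and the controls between -22.2 and -9.24. Animals were the replicates, and their number limits the precision. When the old arrays entered the same model and shared its estimate of the spread, 687 genes were called (342 higher and 345 lower), and list counts and single calls that this model changes are given with it. The gene lists below and their members were chosen with earlier results of these data known. Their shares beside those of all genes are thus a description, with no test.

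The label of liver was borne out by hepatocyte markers, which were bright on all arrays. The mean log2 level of 12 hepatocyte markers lay between 14.88 and 15.04 in the control livers and between 14.89 and 14.97 with LA, and 1 of the 12 was called (Apoa1, -0.31 ± 0.07). No marker of Kupffer cells and macrophages (11 measured), T and NK cells (15), bile duct (4), erythroid cells (4) or exocrine pancreas (5) was called by limma, although 6 Kupffer markers were called higher without control 1, 2 without control 8, and 1 each without control 3, LA 4 or LA 7, and 1 T and NK cell marker was called higher without LA 3. All 11 Kupffer markers had a positive difference, with a median of 0.22, and their mean was 8.62 to 9.35 in controls and 9.11 to 9.31 with LA. Among 15 stellate cell and matrix markers 3 were called higher (Pdgfrb 1.01 ± 0.15, Rgs5 0.66 ± 0.14, Col4a1 0.28 ± 0.08), with a list mean of 7.02 to 7.36 in controls and 7.08 to 7.48 with LA, and none of the 3 was called with the old arrays in the model. Other lists held calls too, beside 8.29% of all genes called higher and 8.05% lower. Of 4 neutrophil markers 1 rose (S100a9, 0.89 ± 0.21), or 2 without control 7 or LA 7, with a list mean of 5.32 to 6.19 in controls and 6.03 to 6.31 with LA. Of 12 endothelial markers 1 rose (Eng, 0.29 ± 0.08), of 5 adipocyte markers 1 (Lpl, 0.62 ± 0.21), and of 2 B and plasma cell markers 1 rose (Jchain, 0.62 ± 0.19) and 1 fell (Xbp1, -0.53 ± 0.11). S100a9, Eng, Lpl and Jchain were not called with the old arrays in the model, Jchain not without control 2, 5, 7 or 8 or LA 1, 2 or 5 to 8, and Lpl not without control 1, 2 or 5 to 8 or LA 1 to 3 or 6 to 8. In bulk tissue, fewer cells of a type and less RNA per cell cannot be told apart, and the part of these markers in the results below was not tested.

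The positive arm of the clock stood far higher with LA. Of its 4 measured genes 3 rose (Npas2, Bmal1 and Clock), against 8.29% of all genes, with a median difference of 2.71 over the 4. Bmal1, the transcription factor at the centre of the loop, read 2.64 to 5.36 (median 4.48) in the controls and 8.35 to 9.03 (median 8.85) with LA. The lowest LA animal lay about 3 log2 units above the highest control. Bmal1 rose by 4.46 ± 0.29, or 21.9-fold (adjusted p = 2.32e-08). Npas2, a partner of BMAL1 that can take the place of CLOCK, read 2.44 to 5.70 (median 3.88) in the controls and 8.07 to 8.85 (median 8.76) with LA. Since the control mean of 3.97 lay under the floor and the LA mean was 8.64, the rise is given as at least 25-fold (adjusted p = 5.35e-07). Clock, the other partner, had the smallest shift of the trio but the tightest groups, at 9.38 to 9.71 (median 9.61) against 10.36 to 10.70 (median 10.55), a rise of 0.96 ± 0.07 (adjusted p = 4.52e-08). Rora, a nuclear receptor that activates Bmal1, read 7.60 to 8.91 (median 8.40) and 7.70 to 8.90 (median 8.32), a difference of 0.11 ± 0.18 (adjusted p = 0.746).

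Promoters of the clock genes were searched for the elements through which the loop is closed, and most of the windows held no match. RefSeq windows of 300 bases on GRCr8, spanning the annotated start, were searched on both strands for the E-box CACGTG bound by BMAL1 and its partners, the D-box TTANGTAA bound by DBP, TEF and HLF, and the ROR element (an A, any 2 bases, T, any base and GGTCA) bound by RORs and REV-ERBs. Over all 27457 promoters of the table, 6.65% held the E-box, 2.19% the D-box and 2.68% the ROR element. Among the 8880 promoters of genes tested the shares were 9.56%, 1.24% and 1.97%. Among the 4 activators with a promoter in the table, Bmal1 alone held a ROR element, starting 19 bases before the start site. Of 8 repressor promoters 1 held an E-box (Bhlhe40) and 1 a D-box (Per2), and of 9 output factor promoters 1 held an E-box (Tef) and 1 a D-box (Coq10b). The 4 windows below, each 300 bases read 5′ to 3′ on the gene's strand, have the match in capitals: the ROR element of Bmal1 (chr1:176766078-176766377, plus strand), the D-box of Per2 (chr9:99496944-99497243, minus strand), and the E-boxes of Bhlhe40 (chr4:143174200-143174499, plus strand) and Tef (chr7:115206577-115206876, plus strand). A match is a description of the letters, and promoters without one in this window, such as that of Dbp, may differ elsewhere.
Bmal1: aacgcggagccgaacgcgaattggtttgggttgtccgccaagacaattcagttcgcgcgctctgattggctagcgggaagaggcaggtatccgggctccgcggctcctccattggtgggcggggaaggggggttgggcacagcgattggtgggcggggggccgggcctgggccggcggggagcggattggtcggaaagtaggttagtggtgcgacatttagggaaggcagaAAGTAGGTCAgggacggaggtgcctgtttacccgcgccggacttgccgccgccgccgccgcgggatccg
Per2: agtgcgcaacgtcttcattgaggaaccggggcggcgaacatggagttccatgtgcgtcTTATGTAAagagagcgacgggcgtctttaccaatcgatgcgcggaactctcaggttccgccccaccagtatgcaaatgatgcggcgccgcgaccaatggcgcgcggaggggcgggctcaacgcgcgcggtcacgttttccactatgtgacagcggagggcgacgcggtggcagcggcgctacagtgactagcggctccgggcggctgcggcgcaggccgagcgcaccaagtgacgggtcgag
Bhlhe40: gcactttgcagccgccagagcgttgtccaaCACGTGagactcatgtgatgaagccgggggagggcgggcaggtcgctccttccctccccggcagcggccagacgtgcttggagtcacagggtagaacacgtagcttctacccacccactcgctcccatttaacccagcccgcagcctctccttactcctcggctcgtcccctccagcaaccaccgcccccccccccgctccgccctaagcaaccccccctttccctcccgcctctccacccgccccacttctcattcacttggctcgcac
Tef: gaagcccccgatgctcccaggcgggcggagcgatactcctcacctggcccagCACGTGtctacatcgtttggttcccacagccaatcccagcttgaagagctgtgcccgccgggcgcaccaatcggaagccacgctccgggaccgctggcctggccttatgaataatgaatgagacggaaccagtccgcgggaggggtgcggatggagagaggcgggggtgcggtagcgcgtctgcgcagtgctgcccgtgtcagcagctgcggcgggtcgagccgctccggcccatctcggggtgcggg
With LA, the RNA of Bmal1 rose and that of the other 3 genes fell, but a match did not go with a single direction elsewhere. Within the fatty acid and triglyceride synthesis list below, ROR elements lay in Gpam, which rose, and in Tkfc. Tkfc read 11.64 to 12.85 in the controls and 10.88 to 11.9 with LA. E-boxes lay in Plin2, which rose, and in Elovl5 and Insig1, which were not called. The part of the matches in these changes was not tested.

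The negative arm moved the other way. Of 9 measured repressors 5 fell (Per2, Per3, Bhlhe40, Nr1d2 and Cry2) and none rose, against 8.05% of all genes called lower, and the median difference was -1.34. Per2, which binds CRY to shut off BMAL1, read 8.52 to 9.71 (median 9.12) in the controls and 5.11 to 6.40 (median 5.43) with LA. The groups were far apart, and Per2 fell by 3.50 ± 0.22 (adjusted p = 1.74e-08). A second, dimmer probe set of Per2 gave -0.36. Per3 fell by 2.53 ± 0.16, with -0.48 on its second probe set, and Bhlhe40, which competes with BMAL1 at E-boxes, fell by 2.62 ± 0.17, neither overlapping between diets. Nr1d2, encoding REV-ERBβ, fell by 1.76 ± 0.19 and Cry2 fell by 0.79 ± 0.18, the latter with overlap (7.22 to 8.37, median 7.78, in the controls and 6.16 to 7.53, median 7.07, with LA). A second probe set of Cry2 gave -0.27.

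Nr1d1, encoding REV-ERBα and a direct repressor of Bmal1, was the exception among these repressors in its spread. It read 7.57 to 8.67 (median 8.29) in the controls and 4.55 to 8.58 (median 7.05) with LA. The LA animals ranged from far below every control (4.55 in LA 5, 5.61 in LA 1) to among them (8.58 in LA 4, 8.09 in LA 8). Its difference of -1.34 ± 0.47 was not called (adjusted p = 0.0623, exact permutation p = 0.0222), and it passed without LA 4, LA 6 or LA 8. Per1 (-0.33 ± 0.22), Cry1 (-0.14 ± 0.25) and Nfil3 (0.32 ± 0.18), which encodes a repressor at D-boxes, did not pass either.

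Output genes of the clock fell with the repressors. Of 12 measured 9 fell and none rose, against 8.05% of all genes called lower, with a median of -1.55. In 6 all LA animals lay below all controls, against 1.85% of all genes. Dbp, a D-box factor whose RNA has one of the widest daily swings in liver, gave the largest measured fall of any gene called. It read 10.92 to 11.71 (median 11.51) in the controls and 4.84 to 7.93 (median 5.63) with LA. The animal LA 4 was the nearest to the controls, and all 8 LA animals lay below all controls. Dbp fell by 5.49 ± 0.31, a level 44.9-fold lower (adjusted p = 6.9e-09). Its relatives Tef (-1.97 ± 0.13) and Hlf (-1.58 ± 0.14) fell without overlap, as did Wee1, a kinase that holds back mitosis (-2.24 ± 0.30). Rgs16, a regulator of G protein signalling, read 8.19 to 12.16 (median 10.58) and 4.44 to 8.04 (median 6.64), and fell by 4.14 ± 0.63. The deubiquitinase gene Usp2 fell by 1.51 ± 0.25, Klf10 fell by 1.32 ± 0.32 and Coq10b fell by 1.29 ± 0.19. Noct, nocturnin, an NADP(H) phosphatase under clock control, scattered in both diets (6.6 to 10.69, median 9.28, in the controls and 3.81 to 8.37, median 6.53, with LA) and fell by 2.65 ± 0.71 (adjusted p = 0.0158). Avpr1a (0.26 ± 0.10), Klf9 (-0.10 ± 0.17) and Tsc22d3 (0.12 ± 0.20), the last 2 being glucocorticoid targets, did not pass, although Avpr1a was called higher without control 3 or control 7.

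**Figure D1:**
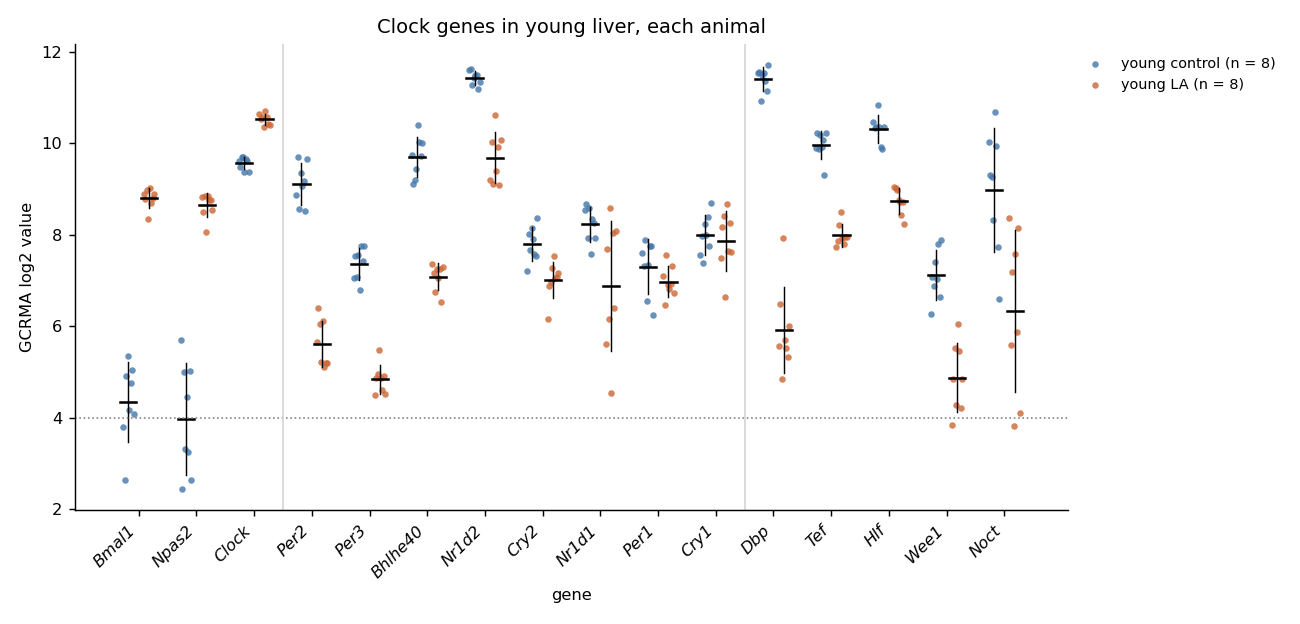
GCRMA log2 values of 16 clock genes in each animal (points), with the group mean (bar) and SD (line), for 8 young control and 8 young LA livers; vertical lines part activators, repressors and outputs, and the dotted line is the floor of 4. Bmal1, Npas2 and Clock lie higher with LA and Per2, Per3, Bhlhe40, Dbp, Tef and Hlf lower, with no overlap, while Nr1d1 and Noct spread widely.

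Clock parts that act after transcription were called in 2 cases, or 16.7%, near the 16.3% of all genes. Of 12 genes for kinases, ubiquitin ligases and cofactors of the clock, 1 rose (Ncor1, the corepressor used by REV-ERBs, 0.28 ± 0.06) and 1 fell. The one that fell was Nampt, the rate-limiting enzyme of NAD salvage and itself a clock output, which read 11.44 to 12.31 (median 11.99) in the controls and 8.88 to 10.19 (median 9.69) with LA, a difference of -2.35 ± 0.16 with no overlap. A second member, Gsk3b (-0.28 ± 0.10, adjusted p = 0.0703), was called lower without control 6, LA 3 or LA 4. The casein kinase genes Csnk1d (-0.12 ± 0.09) and Csnk1e (0.01 ± 0.07) did not pass.

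Within a diet, the level of Bmal1 was set against 9 genes in the 8 animals, which made 18 relations over both diets. None passed after Benjamini-Hochberg adjustment, the lowest adjusted exact permutation p being 0.19. Among the LA animals, Npas2 followed Bmal1 (Pearson r = 0.855, exact permutation p = 0.021, Spearman rho = 0.81, exact permutation p = 0.0218), but without animals 4 and 5 r was 0.25, so the relation rested on them. Dbp ran opposite to Bmal1 in the LA animals (r = -0.82, exact permutation p = 0.034, rho = -0.38, exact permutation p = 0.36) and had r = -0.42 without the same animals. Among the controls, Dbp and Bmal1 had r = -0.54 (exact permutation p = 0.176) and rho = -0.76 (exact permutation p = 0.0368), and r = -0.84 without animals 2 and 4. Bmal1 read 2.64 to 5.36 in the controls, under the floor in control 1 (3.79) and control 2 (2.64). The relations among controls thus rest in part on values near background.

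Genes along the route of fatty acid synthesis fell. Of 29 measured genes of fatty acid and triglyceride synthesis 17 fell and 6 rose, against 8.05% and 8.29% of all genes, and the median difference was -0.79, beside 0.004 over all genes. In the model with the old arrays 11 members were called lower. The enzymes were lower from the first steps on: Acly, which makes cytosolic acetyl-CoA (-1.19 ± 0.24), Acaca, acetyl-CoA carboxylase (-1.84 ± 0.22), and Fasn, fatty acid synthase. Fasn read 8.93 to 12.73 (median 10.18) in the controls and 7.33 to 8.88 (median 7.99) with LA. Control 5 stood highest at 12.73, and all LA animals lay below all controls. Fasn fell by 2.20 ± 0.40 (adjusted p = 0.00114).

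The enzymes that lengthen and desaturate the product fell too. Elovl6, which extends palmitate to stearate, read 8.02 to 10.54 (median 9.02) in the controls and 4.64 to 6.43 (median 5.69) with LA. The groups were separate by more than 1 log2 unit, and the level was 10.5-fold lower (adjusted p = 3.52e-06). Scd, the stearoyl-CoA desaturase, was among the brightest probe sets in controls, at 14.80 to 15.47 (median 15), and read 9.86 to 13.76 (median 12.92) with LA, where LA 3 at 9.86 was the lowest. It fell by 2.53 ± 0.41. The desaturases of polyunsaturated fatty acids, Fads1 (-1.12 ± 0.17) and Fads2 (-1.48 ± 0.16), and the elongase Elovl2 (-0.70 ± 0.14) also fell, while Elovl5 gave -0.05 ± 0.12 (adjusted p = 0.819). Thrsp, a small nuclear protein that follows lipogenesis, read 14.70 to 15.67 (median 15.27) and 11.10 to 12.70 (median 11.84), a difference of -3.21 ± 0.21 that 3 probe sets shared (-3.46 to -3.20). Fads1 and Fads2 lost their calls with the old arrays in the model.

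Of the regulators, Srebf1, which encodes SREBP-1, fell by 0.82 ± 0.21 with overlap (10.72 to 12.34, median 11.23, in the controls and 10.16 to 10.91, median 10.60, with LA), and Mlxipl, which encodes ChREBP, gave -0.18 ± 0.11 (adjusted p = 0.331). Insig2, whose protein holds SREBPs in the endoplasmic reticulum, read 12.33 to 13.19 (median 12.85) in the controls and 13.83 to 14.51 (median 14.00) with LA. The groups were apart, and Insig2 rose by 1.28 ± 0.14 (adjusted p = 6.48e-06). Insig1 gave 0.57 ± 0.30 (adjusted p = 0.236). Pnpla3, a lipid droplet protein and SREBP-1c target, ran from 5.26 in control 3 to 12.29 in control 5, and from 4.41 to 5.67 with LA. The call of its difference of -2.32 ± 0.72 (adjusted p = 0.0352) was lost without control 1 or 2 or any of LA 1 to 5 or LA 8, and it and that of Srebf1 were lost with the old arrays in the model. Genes named beyond the clock genes and the 4 of a list with the smallest p were mostly named after their values were seen.

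The 6 members that rose sit mainly in glycerolipid assembly and storage. They were Gpam (0.55 ± 0.14) and Agpat2 (0.72 ± 0.10), the acyltransferases of the first steps of triglyceride synthesis, Dgat1 (0.26 ± 0.08), the enzyme of its last step, Acsl3 (0.71 ± 0.16), which activates fatty acids at lipid droplets, Plin2 (0.79 ± 0.15), a droplet coat protein, and Insig2. Agpat2 read 10.80 to 11.59 (median 11.17) in the controls and 11.62 to 12.21 (median 11.87) with LA, with no overlap. The phosphatidate phosphatase gene Lpin2 fell by 0.95 ± 0.14, with -0.16 on a second probe set, and Acsl5 fell by 0.93 ± 0.12, with -0.22 on its second. Dgat2 gave -0.17 ± 0.06 (adjusted p = 0.082). The call of Dgat1 was lost without control 1, control 2, LA 2, LA 3 or LA 5. It was also lost with centred arrays, and those of Dgat1 and Gpam with the old arrays in the model.

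NADPH for fatty acid synthesis comes from malic enzyme and the pentose phosphate pathway. In that supply 3 of 8 genes fell and none rose, against 8.05% of all genes called lower, with Me1 alone called in the model with the old arrays. Me1, cytosolic malic enzyme, read 10.02 to 12.05 (median 10.62) in the controls and 8.78 to 9.65 (median 9.14) with LA, without overlap, and fell by 1.57 ± 0.22 (adjusted p = 9.72e-05). Tkt, transketolase, fell by 0.43 ± 0.12 and Pgd, 6-phosphogluconate dehydrogenase, fell by 0.68 ± 0.20, a call lost without LA 2, LA 3 or LA 8.

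Several genes of sugar uptake and storage fell. Slc2a5, the fructose transporter GLUT5, read 8.29 to 9.67 (median 9.08) in the controls and 4.41 to 6.25 (median 5.18) with LA. All LA animals lay more than 2 log2 units below all controls, and the difference was -3.65 ± 0.23, a level 12.6-fold lower (adjusted p = 1.74e-08). Of 17 genes of glucose uptake, glycolysis and glycogen 8 fell and 2 rose (Gckr and Pgk1), against 8.05% and 8.29% of all genes, and the median was -0.36. In 6 of the 8 the groups did not overlap, against 1.85% of all genes with all LA animals below all controls. Slc2a2, the glucose transporter GLUT2, read 13.73 to 14.09 (median 13.98) and 12.53 to 13.25 (median 12.86), a difference of -1.08 ± 0.09 (adjusted p = 3.45e-07). Pklr, liver pyruvate kinase and a ChREBP target, fell by 1.78 ± 0.25, and Khk, which traps fructose, fell by 0.60 ± 0.08. Glycogen genes fell: Gys2, glycogen synthase (-0.93 ± 0.12), Gbe1, the branching enzyme (-0.66 ± 0.11), Ugp2, which makes UDP-glucose (-0.68 ± 0.10), and Ppp1r3b, which targets phosphatase to glycogen (-0.61 ± 0.16). Pygl, which breaks glycogen down, gave 0.03 ± 0.10 (adjusted p = 0.854). Gckr, the glucokinase regulatory protein, rose from 10.28 to 12.01 (median 11.38) to 12.22 to 12.42 (median 12.33), by 0.97 ± 0.18 without overlap, and Pgk1 by 0.24 ± 0.07. Glucokinase itself was not analysed here, and with the old arrays in the model Pgk1, Khk and Ppp1r3b lost their calls. The call of Pgk1 was also lost with the replicate number as a block in the model.

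**Figure D2:**
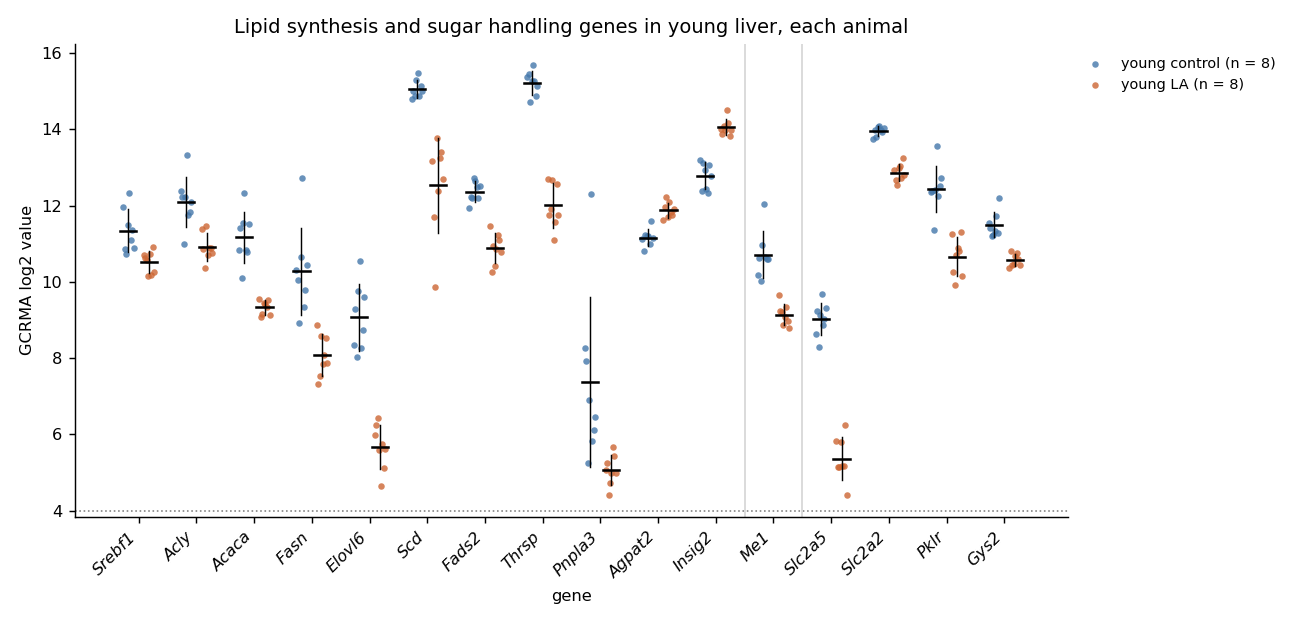
GCRMA log2 values of 16 genes of lipid synthesis, NADPH supply and sugar handling in each animal (points), with the group mean (bar) and SD (line), for 8 young control and 8 young LA livers; the dotted line is the floor of 4. Agpat2 and Insig2 lie higher with LA, and Elovl6, Scd, Thrsp, Slc2a5 and Slc2a2 lower with no overlap; control 5 is the highest point in Fasn, Pnpla3 and Me1.

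Genes of glucose production did not rise as a set. Of 20 genes of gluconeogenesis and fasting none rose and 6 fell (Sds, Pc, Trib1, Ppargc1a, Slc37a4 and Sik1), against 8.05% of all genes called lower. With the old arrays in the model Pc and Ppargc1a alone were called. Sds, serine dehydratase, which turns serine into pyruvate, read 11.28 to 14.02 (median 12.38) in the controls and 7.40 to 10.54 (median 9.59) with LA, with no overlap, and fell by 3.11 ± 0.48 (adjusted p = 0.000276). Pc, pyruvate carboxylase, fell by 0.41 ± 0.07 and Ppargc1a, the fasting coactivator PGC-1α, fell by 0.80 ± 0.19. Pck1, the classic fasting enzyme of this pathway, read 14.32 to 15 (median 14.86) in the controls and 14.62 to 15.05 (median 14.79) with LA, a difference of -0.01 ± 0.09 with a 95% interval of -0.20 to 0.18. Igfbp1, which insulin lowers, gave 0.60 ± 0.24 (adjusted p = 0.0995), and G6pc1 was not analysed here.

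Fatty acid oxidation genes rose in part. Of 29 genes of oxidation and of PPARα targets 8 rose and 2 fell (Cd36 and Aldh3a2), against 8.29% and 8.05% of all genes. The median was 0.24, and none was called lower when the old arrays entered. Fgf21, a liver hormone induced by PPARα in fasting and by ATF4 under stress, read 7.51 to 8.84 (median 8.06) in the controls and 9.45 to 11.29 (median 10.66) with LA. Every LA animal lay above every control, and Fgf21 rose by 2.46 ± 0.25, or 5.49-fold (adjusted p = 3.74e-06). Acot1, an acyl-CoA thioesterase and PPARα target, read 3.78 to 4.90 (median 4.26) in the controls and 4.18 to 9.38 (median 7.48) with LA. LA 1 at 4.18 lay within the controls and LA 2 was highest, and the rise was 2.80 ± 0.58 (adjusted p = 0.00292). Acot2, a close mitochondrial copy whose probe sets may share signal with it, rose by 0.97 ± 0.24, and Vnn1, a pantetheinase, by 1.36 ± 0.31. Among the oxidation enzymes, Acadm rose by 0.26 ± 0.05, a call lost with the old arrays in the model, and Etfdh by 0.36 ± 0.06. Cpt1a, the liver form of the enzyme that admits fatty acids into mitochondria, gave -0.15 ± 0.12 (adjusted p = 0.462).

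Cpt1b, its muscle form, was not in the list but stood among the largest rises, from 4.5 to 5.81 (median 5.34) to 6.58 to 8.89 (median 8.30), by 2.85 ± 0.29 (adjusted p = 4.7e-06). No skeletal muscle marker passed the floor filter on these arrays. Pex11a, a peroxisome protein and PPARα target, rose by 1.74 ± 0.20 and Cidea, a lipid droplet protein, by 1.68 ± 0.34. Pdk4, the pyruvate dehydrogenase kinase of fasting, gave 0.32 ± 0.32 (adjusted p = 0.568). Of 6 genes of ketone body and acetyl-CoA handling 2 rose, against 8.29% of all genes. They were Slc16a1, the transporter MCT1 (1.16 ± 0.10), and Acat1 (0.20 ± 0.05), the latter not called with the old arrays in the model.

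Cholesterol synthesis genes rose in a few cases. Of 20 genes 4 rose (Sqle, Idi1, Dhcr7 and Srebf2) and 1 fell (Ebp), against 8.29% and 8.05% of all genes, with a median of 0.09. With the old arrays in the model 2 were called higher and none lower. Sqle, squalene epoxidase, read 5.66 to 7.59 (median 6.25) and 7.33 to 9.12 (median 7.97), with overlap, and rose by 1.61 ± 0.31 (adjusted p = 0.00167). Idi1 rose by 0.93 ± 0.25 and Dhcr7 by 0.70 ± 0.20, and Srebf2, which encodes the main sterol regulator, by 0.41 ± 0.13. The call of Srebf2 was lost without any of control 1 to 4 or 6, LA 1 or LA 4 to 7 and, like those of Idi1 and Ebp, with the old arrays in the model. Without control 6 a second member was called lower. The sterol element TCACNCCAC, searched on both strands, was in 1.13% of all promoter windows and in none of the 16 windows of this list or the 24 of fatty acid and triglyceride synthesis, which says only that these letters are not in this stretch.

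Several genes of the integrated stress response rose. When amino acids run short or mitochondria are stressed, eIF2α kinases raise the translation of ATF4, which switches on genes for amino acid synthesis and uptake. Of 20 genes of this response 9 rose and 1 fell (Ddit3), against 8.29% and 8.05% of all genes, and 10 did not pass, with a median of 0.47. Trib3, a pseudokinase that ATF4 induces, read 6.53 to 7.92 (median 7.39) in the controls and 8.95 to 11.12 (median 9.72) with LA, and rose by 2.56 ± 0.31, or 5.88-fold (adjusted p = 2.41e-05). Asns, asparagine synthetase, read 5.82 to 7.21 (median 6.45) and 7.22 to 8.86 (median 8.43), with a rise of 1.73 ± 0.25, and Phgdh, the first enzyme of serine synthesis, read 3.92 to 6.63 (median 4.81) and 5.55 to 7.96 (median 7.26), with a rise of 2.04 ± 0.39. In Trib3 and Asns the groups did not overlap, and in Phgdh they did.

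Amino acid transport and nutrient sensing genes of the same list also rose. Slc3a2, the heavy chain of amino acid exchangers, rose by 0.95 ± 0.13 without overlap. Sesn2, a leucine sensor that restrains mTORC1, rose by 0.85 ± 0.11, with 0.08 on a second probe set, and Ddit4, another brake on mTORC1, by 1.61 ± 0.32. Psph rose by 0.51 ± 0.13 and Mthfd2, of the mitochondrial folate pathway, by 0.42 ± 0.10. Atf4 itself gave 0.13 ± 0.14 (adjusted p = 0.574), Atf3 -0.07 ± 0.21 and Chac1, a glutathione-degrading enzyme downstream of ATF4, 0.08 ± 0.22. Ddit3, encoding CHOP, fell by 0.29 ± 0.09 (adjusted p = 0.0463), a call lost without any of control 1 to 7, LA 1 or LA 4 to 7. In the model with the old arrays Ddit4, Psph, Mthfd2 and Ddit3 lost their calls.

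In the endoplasmic reticulum (ER), none of 23 stress and chaperone genes rose and 9 fell, against 8.05% of all genes called lower, with a median of -0.34. Hspa5, the ER chaperone BiP, read 14.21 to 14.86 (median 14.63) in the controls and 13.79 to 14.41 (median 14.22) with LA, with overlap, and fell by 0.42 ± 0.10 (adjusted p = 0.00537). Xbp1, the transcription factor of the unfolded protein response, fell by 0.53 ± 0.11, its target Dnajb9 fell by 0.63 ± 0.13, Eif2ak3, the ER kinase PERK, fell by 0.57 ± 0.13, and Derl2, of ER-associated degradation, fell by 0.43 ± 0.06 without overlap. The other 4 were Hyou1, Creld2, Manf and Hsp90b1. The call of Hsp90b1 was lost without any of control 1, 2 or 4 to 8, LA 1 to 3 or LA 5, that of Hyou1 without control 2, 4, 5 or 8 or LA 1, 2, 5 or 7, and both with the old arrays in the model. Without control 3, which was the lowest control in Manf (12.56) and Hsp90b1 (13.5), 14 members were called lower.

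Some cytosolic chaperone genes fell. Of 22 heat shock and temperature-responsive genes 7 fell and 2 rose, against 8.05% and 8.29% of all genes, and 13 did not pass. The median was -0.18, and with the old arrays in the model 3 fell and 1 rose. Hspa1a, the inducible HSP70, read 5.77 to 8.75 (median 6.68) and 4.68 to 7.06 (median 5.15) and fell by 1.53 ± 0.42 (adjusted p = 0.0181), Dnajb1, its co-chaperone, fell by 0.62 ± 0.11, Hsph1 fell by 0.65 ± 0.17 and Dnaja1 fell by 0.31 ± 0.06. The 2 that rose were Srsf5, a splicing factor (0.81 ± 0.16), and Rbm3 (0.54 ± 0.13), an RNA-binding protein that cooling induces. Dnaja1, Hsph1 and Rbm3 lost their calls with the old arrays in the model.

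**Figure D3:**
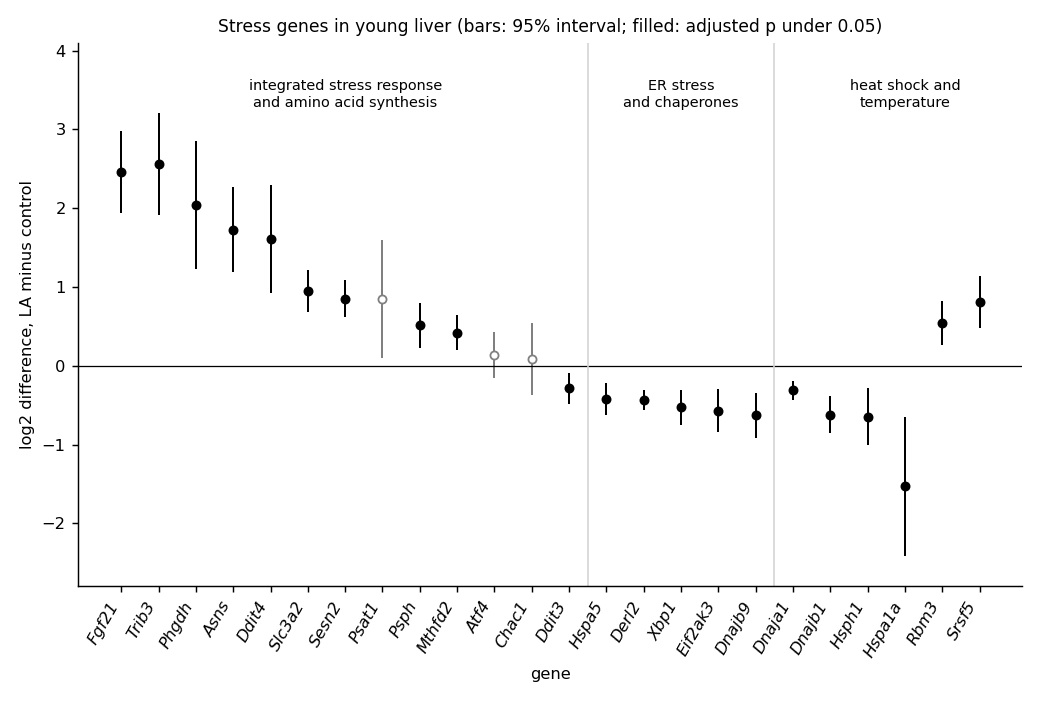
Log2 difference, LA minus control, in young liver (8 and 8 animals) for 24 stress genes, with 95% intervals; filled points had an adjusted p under 0.05. The genes were picked from their lists, and the ER, heat shock and temperature genes shown were all called. Not called were 14 of 23 measured genes of the ER list and 13 of 22 of the heat shock and temperature list. In these lists 3 and 7 members had a positive difference. Among the genes shown, those of the integrated stress response lie above 0 up to 2.56 in Trib3, with Ddit3 below 0. The ER chaperone and heat shock genes shown lie below 0 and Rbm3 and Srsf5 above.

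Slc6a6, the taurine transporter, which was in no list, had one of the largest measured rises. It read 4.32 to 6.47 (median 5.72) in the controls and 9.65 to 10.81 (median 10.41) with LA. The lowest LA animal lay over 3 log2 units above the highest control, and Slc6a6 rose by 4.76 ± 0.24, or 27.2-fold (adjusted p = 1.6e-09), with 3.94 on a second probe set. Csad, which makes hypotaurine from cysteine sulfinate, read 10.71 to 11.95 (median 11.25) and 12.21 to 12.66 (median 12.29) and rose by 1.04 ± 0.16, and Cth, which makes cysteine from cystathionine, read 12.03 to 12.96 (median 12.53) and 13.59 to 14.03 (median 13.87) and rose by 1.31 ± 0.13, both without overlap. Of 24 genes of methyl group and sulfur metabolism 5 rose (these 2, Cbs, Bhmt and Gnmt) and 2 fell (Tst and Nnmt), against 8.29% and 8.05% of all genes. The other 17 did not pass, the median was -0.08, and with the old arrays in the model Csad alone was called. The count of 5 was 3 without control 2, 4, 6 or 8 or LA 4, 5, 7 or 8, and the count of 2 was 1 with arrays centred on their medians or without control 2, 4, 5 or 7 or LA 1, 3 or 4, and 0 without control 8, LA 6 or LA 8.

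Amino acid catabolism was mixed. Of 31 genes of catabolism and the urea cycle 8 rose and 4 fell, against 8.29% and 8.05% of all genes, and with the old arrays in the model Kynu alone was called. Kynu, kynureninase of tryptophan breakdown, read 11.29 to 12.80 (median 12.08) and 13.49 to 13.69 (median 13.61), without overlap, and rose by 1.44 ± 0.16 (adjusted p = 7.52e-06), while Kmo, the step before it, fell by 0.27 ± 0.05 and Haao, a step after it, fell by 0.27 ± 0.06. Sds was the largest fall. Oat rose by 0.61 ± 0.17, a call lost with the replicate number as a block in the model, Prodh by 0.51 ± 0.11 and Gpt by 0.46 ± 0.11.

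Hormone response genes pointed several ways, beside 8.29% of all genes called higher and 8.05% lower. Of 19 genes of insulin and growth factor signalling 3 rose (Trib3, Ddit4 and Insr, 0.40 ± 0.11) and 2 fell (Akt1, -0.27 ± 0.08, and Pik3r1, -1.11 ± 0.37). The 2 became 1 (Akt1) with the old arrays in the model, which also ended the call of Ddit4, and the 2 became 1 without control 1, 5 or 7 or LA 2, 5, 7 or 8. The call of Akt1 was lost with probe sets averaged. Of 14 growth hormone and STAT5 genes 3 rose (Stat5b, Hsd3b5 and Obp3) and 2 fell (Cish and Onecut1), with Stat5b and Cish alone called with the old arrays in the model. Cish, a feedback inhibitor that STAT5 induces within minutes of a growth hormone pulse, read 7.97 to 10.97 (median 10.14) in the controls and 6.14 to 8.96 (median 7.83) with LA and fell by 2.12 ± 0.50 (adjusted p = 0.00655). Onecut1, encoding HNF6, fell by 1.80 ± 0.45, and Stat5b rose by 0.74 ± 0.09 without overlap.

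Rat liver is strongly sexually dimorphic through the pattern of growth hormone, and all animals here were male. Of 12 male-predominant genes 6 rose and none fell, beside 8.29% of all genes called higher and 8.05% lower, and 2 of the 6 (Nox4 and Slc22a8) were called with the old arrays in the model. Dhrs7l1, a short-chain dehydrogenase gene, read 11.83 to 12.87 (median 12.69) and 13.75 to 14.42 (median 13.94) and rose by 1.46 ± 0.14 without overlap, Nox4, an NADPH oxidase, by 1.18 ± 0.21, Hsd3b5 by 0.50 ± 0.09 and Obp3, of the α2u-globulin family whose copies share sequence, by 0.41 ± 0.08. Of 10 female-predominant genes 1 rose (Ust5r, 0.23 ± 0.06) and 2 fell (Prlr and Sult2a6), with Prlr alone called once the old arrays entered. Prlr, the prolactin receptor, read 5.81 to 8.55 (median 7) and 2.93 to 5.75 (median 4.89), without overlap, and fell by 2.18 ± 0.41, with -3.85 on a second probe set. Hsd17b2, which inactivates oestradiol and testosterone, read 14.76 to 15.45 (median 15.15) and 11.24 to 13.25 (median 12.32) and fell by 2.93 ± 0.24 (adjusted p = 2.84e-07).

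Drug metabolism genes shifted individually, beside 8.29% of all genes called higher and 8.05% lower. Of 20 cytochrome P450 and nuclear receptor genes 5 rose and 2 fell, or 3 and 1 with the old arrays. Cyp3a9 read 9.84 to 11.06 (median 10.26) in the controls and 11.96 to 12.76 (median 12.27) with LA, apart in all animals, and rose by 1.96 ± 0.17 (adjusted p = 6.18e-07), and Nr1i3, encoding the receptor CAR, rose by 0.99 ± 0.20. Por, the reductase that feeds electrons to P450s, fell by 0.91 ± 0.19. Of 20 conjugation genes 5 rose and 3 fell, or 3 and 1 with the old arrays, and 5 fell without control 2. The sulfotransferase gene Sult1b1 had tight groups, at 14.09 to 14.28 (median 14.23) and 14.79 to 15.02 (median 14.93), and rose by 0.71 ± 0.05 (adjusted p = 2.85e-08), and Acsm3 rose by 1.4 ± 0.20. Nat8, which acetylates cysteine conjugates, fell by 2.00 ± 0.26 and Glyat, which conjugates acids to glycine, fell by 0.40 ± 0.05, both without overlap. Glyat lost its call with the old arrays in the model.

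Antioxidant genes rose in a few cases and by small steps, beside 8.29% of all genes called higher and 8.05% lower. Of 26 NRF2 targets and glutathione genes 5 rose (Nqo1, Gstm1, Srxn1, Akr7a3 and Cbr1) and 2 fell (Me1 and Gss), with a median of 0.07, and of the 5 Gstm1 alone was called with the old arrays. Without control 1, 2, 3, 6 or 7 or LA 2, 5 or 8 the call of Cbr1 was lost. Nqo1, a quinone reductase and standard NRF2 target, read 6.89 to 7.75 (median 7.59) and 7.80 to 8.60 (median 8.07), with no overlap, and rose by 0.62 ± 0.14 (adjusted p = 0.00555), and Gstm1, a glutathione transferase with close copies, by 0.40 ± 0.06. Of 23 promoter windows of this list 7 (30.4%) held the antioxidant element TGACNNNGC on either strand, beside 12.2% of all windows and 14.6% of those of genes tested. They were those of Nfe2l2, Gclm, Gsta1, Gstp1, Abcc2, Ugdh and Me1, so none belonged to a gene of the list that rose. The share was also 25.0% for cholesterol synthesis, 22.2% for the integrated stress response and 20.8% for fatty acid and triglyceride synthesis. Of 17 antioxidant enzyme genes outside that list 3 rose (Sod2, 0.32 ± 0.07, Prdx5, 0.33 ± 0.05, and Glrx, 0.31 ± 0.09) and none fell. The 3 became 1 (Prdx5) with the old arrays and 5 without LA 4, and 1 gene was called lower without LA 3 or LA 7. Glrx lost its call without control 1, 5 or 6 or LA 3 or 5.

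Bile acid genes moved in both directions, beside 8.29% of all genes called higher and 8.05% lower. Of 22 genes 6 rose and 4 fell. Cyp7a1, the rate-limiting enzyme of bile acid synthesis and a gene with a daily rhythm, read 9.68 to 11.38 (median 10.45) and 7.44 to 10.08 (median 9.52) and fell by 1.31 ± 0.38 (adjusted p = 0.024), while Cyp8b1, which adds the hydroxyl group of cholic acid, rose by 0.84 ± 0.19. The canalicular pumps rose, Abcb11 for bile salts by 0.49 ± 0.09, Abcb4 for phospholipids by 0.98 ± 0.15 and Abcg8 for sterols by 1.06 ± 0.28, the last with LA 1 standing apart at 7.95. The call of Slc10a1 was lost without any of control 1 to 5, 7 or 8, LA 2, 3 or 5 to 8, and that of Nr5a2 without control 2, 4 or 7 or LA 1, 6 or 7. None of the 4 falls (with Slc27a5, Slc10a1 and Nr5a2) was called with the old arrays in the model, and 2 were called without control 2, 4 or 7 or LA 6 or 7. Of 24 apolipoprotein and lipoprotein genes 6 fell, 3 with the old arrays, and 1 rose (Lpl, also an adipocyte marker), a call lost with arrays centred on their medians and in the cases given above.

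The complexes that carry lipoate changed by small steps. Of 29 genes of lipoate synthesis, salvage and lipoylated complexes 7 rose and 6 fell, against 8.29% and 8.05% of all genes, with a median of 0.08 and a range from -0.67 to 0.56. Of the 6 falls, 5 were in pyruvate dehydrogenase and its kinases: Pdhb, its β subunit, read 12.12 to 12.69 (median 12.35) and 11.76 to 12.07 (median 11.95) and fell by 0.40 ± 0.07 without overlap, Pdha1 fell by 0.26 ± 0.08 and Pdhx fell by 0.20 ± 0.07, and its inhibitory kinases Pdk1 and Pdk2 gave -0.67 ± 0.11 and -0.43 ± 0.10. Subunits of other complexes rose, Bckdhb of branched-chain keto acid dehydrogenase by 0.47 ± 0.08 and Gldc of the glycine cleavage system by 0.56 ± 0.17. Lias, lipoate synthase, read 10.25 to 10.48 (median 10.43) and 10.09 to 10.32 (median 10.22) and fell by 0.17 ± 0.05, a call lost without control 2, 4, 6 or 8 or LA 1 or 7. Dld, the dihydrolipoamide dehydrogenase that all these complexes share, rose by 0.15 ± 0.05, a call lost without control 1, 3, 4, 6 or 7 or LA 1, 2, 3 or 6. Iba57, of the iron-sulfur pathway that feeds LIAS, rose by 0.34 ± 0.08. The call of Pdhx was lost with centred arrays or without any of control 1, 2, 5, 6 or 8, LA 1 to 5, 7 or 8, and that of Gldc without control 2, 4 or 8 or LA 2, 5, 7 or 8. With the old arrays in the model 2 rose and 2 fell (Pdhb and Pdk1), so that Lias, Dld, Pdha1, Pdhx, Pdk2 and Gldc lost their calls, and 4 rose without control 4 or LA 2.

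Mitochondrial energy genes stayed near the level of all genes, of which 8.29% were called higher and 8.05% lower. Of 15 tricarboxylic acid cycle genes 2 rose (Idh2, 0.47 ± 0.08, and Idh3g, 0.21 ± 0.06) and 1 fell (Pc), and Idh3g lost its call with the old arrays in the model. Of 32 oxidative phosphorylation genes 4 rose (Ndufa5, Ndufb3, Sdhc and Cyc1) by 0.33 or less and none fell, or 12.5% against 8.29% of all genes. That count was 1 with arrays centred on their medians, with the old arrays, or without control 1, 2 or 4 or LA 2, 3 or 5, and 2 without control 3, 7 or 8. Clpx, the chaperone of the mitochondrial protease CLPXP, had the smallest p-value of all genes: it read 10.76 to 11.35 (median 11.04) and 12.52 to 12.72 (median 12.67) and rose by 1.58 ± 0.07 (adjusted p = 7.1e-10).

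**Figure D4:**
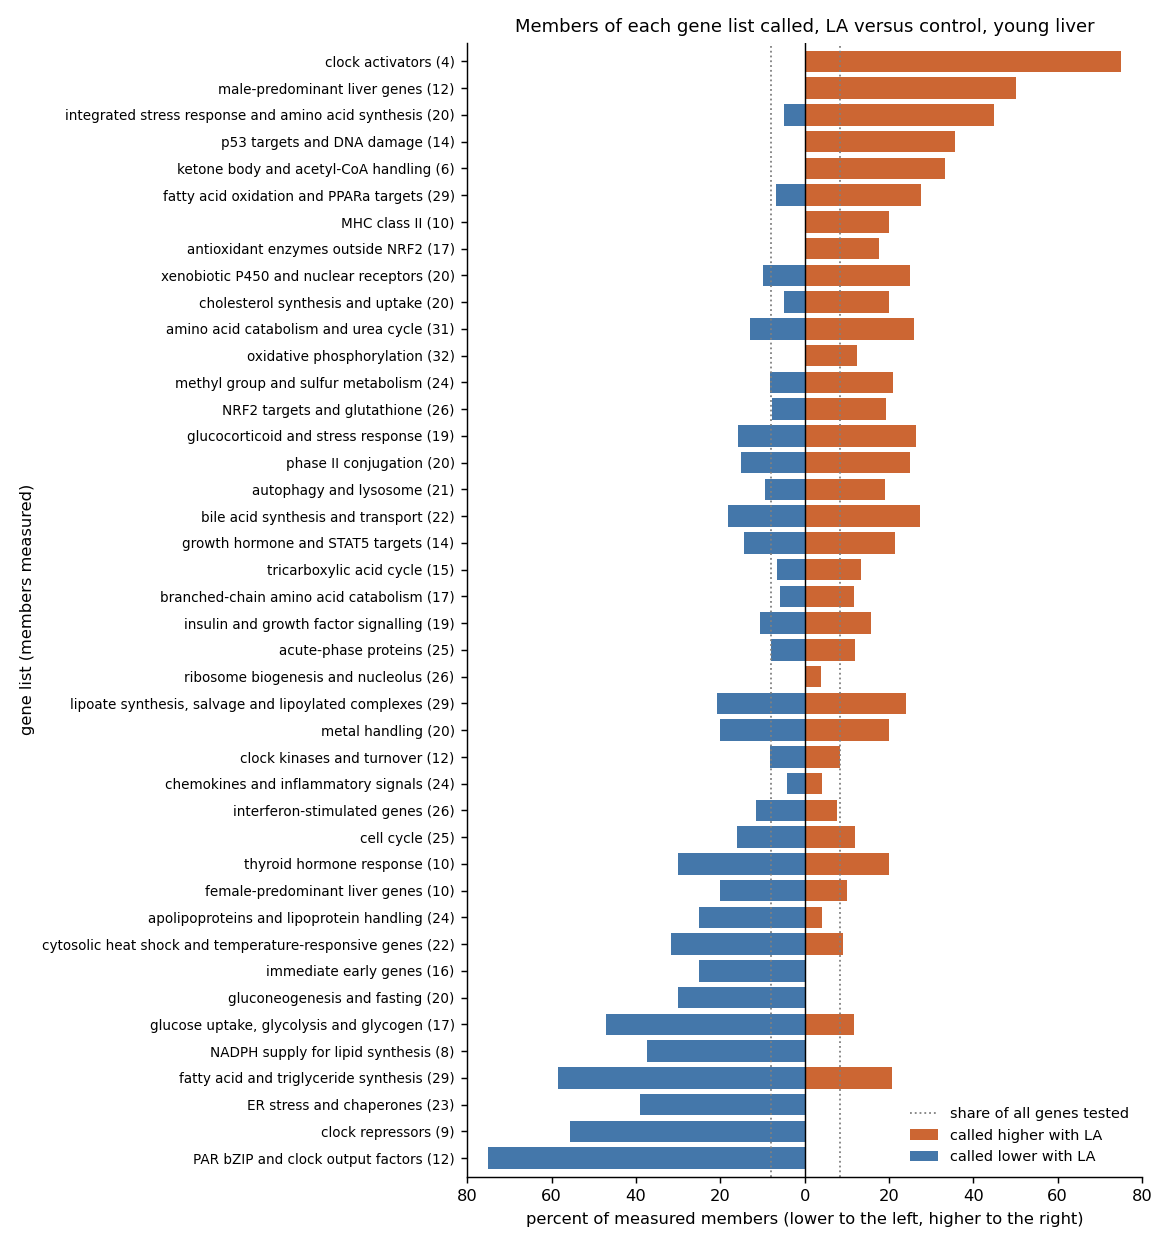
Percent of the measured members (number in brackets) of 42 gene lists called higher (right) and lower (left) with LA in young liver; dotted lines mark the 8.29% and 8.05% of all genes tested. Clock activators (3 of 4), male-predominant genes (6 of 12) and the integrated stress response (9 of 20) reach farthest to the right, and clock outputs (9 of 12), fatty acid and triglyceride synthesis (17 of 29) and clock repressors (5 of 9) farthest to the left.

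Growth control genes held one of the largest rises, and their counts stand beside 8.29% of all genes called higher and 8.05% lower. Cdkn1a, the cell cycle inhibitor p21, read 5.83 to 8.50 (median 7.02) in the controls and 9.68 to 11.25 (median 10.48) with LA. The lowest LA animal lay over 1 log2 unit above the highest control, and Cdkn1a rose by 3.46 ± 0.33, or 11-fold (adjusted p = 2.61e-06). Of 14 p53 targets and DNA damage genes 5 rose (Cdkn1a, Sesn2, Tp53inp1, 0.73 ± 0.21, Xpc, 0.49 ± 0.10, and Ddb2, 0.37 ± 0.09) and none fell, with Tp53inp1 and Ddb2 lost once the old arrays entered. Of 25 cell cycle genes 3 rose (Cdk1, 1.32 ± 0.24, Ccnb2, 1.17 ± 0.28, and Cdc20, 0.80 ± 0.16) and 4 fell (Wee1, Ccnd1, -0.74 ± 0.14, Ccne1 and Ccnd3). With the old arrays in the model Wee1 alone was called, and 2 fell without control 2, 5 or 8 or LA 1 or 8. Ccne1 lost its call without control 2, 3, 5 or 8 or LA 1, 5, 6 or 8, and Ccnd3 without control 1, 2 or 5 to 8 or LA 1, 2, 4, 7 or 8.

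Immediate early genes, which respond within minutes to stimuli or handling, fell in 4 of 16 cases and rose in none, against 8.05% of all genes called lower. They were Dusp1 (-1.17 ± 0.26), Jun (-0.74 ± 0.21), Junb (-0.73 ± 0.22) and Ier2 (-0.40 ± 0.13). With the old arrays Dusp1 alone was called, and 2 without control 6 or 7 or LA 5 or 7. The call of Junb was lost without control 4, 6 or 7 or LA 5 or 7, and that of Ier2 without control 3 to 7, LA 1 or LA 5 to 8. Among 20 metal handling genes 4 rose and 4 fell, against 8.29% and 8.05% of all genes, or 2 and 1 with the old arrays. Mt2A, a metallothionein that binds zinc and answers metals and glucocorticoids, read 9.61 to 12.28 (median 11.48) and 12.47 to 13.60 (median 13.05) and rose by 1.68 ± 0.33 without overlap, and Mt1 by 0.60 ± 0.16. Serpina7, thyroxine-binding globulin, rose by 1.60 ± 0.32.

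Inflammatory genes stayed near the share of all genes, of which 8.29% were called higher and 8.05% lower. Of 24 chemokines and inflammatory signals 1 rose (Il18, 0.41 ± 0.09) and 1 fell (Cxcl11, -0.43 ± 0.08), with none called once the old arrays entered and 2 higher without LA 4 or LA 8. Of 26 interferon-stimulated genes 2 rose (Ifit2 and Irf1) and 3 fell (Bst2, Stat2 and Psmb10), none with the old arrays. The 2 were 4 without control 1 and 1 with centred arrays or without control 2, 3, 5 or 7 or LA 2, 5, 6 or 8, and the 3 were 1 without control 1, LA 5 or LA 8. Bst2 lost its call without any of control 1 to 5 or 8, LA 1, 3 or 5 to 8. Of 25 acute-phase genes 3 rose and 2 fell, or 1 and 0 with the old arrays. Of 10 MHC class II genes 2 rose (Ctss, 0.32 ± 0.09, and Lgmn, 0.30 ± 0.09, both lysosomal proteases of antigen processing), none with the old arrays and 1 without control 2 or 5 or LA 2, 3, 5, 6 or 7.

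Further lists held calls in both directions, beside 8.29% of all genes called higher and 8.05% lower. The share called was 17.6% in branched-chain breakdown, near the 16.3% of all genes, and 3.85% in ribosome biogenesis, under it. Of 19 glucocorticoid and stress genes 5 rose (Cdkn1a, Mt2A, Mt1, Hsd11b1 and Gadd45b), 3 with the old arrays, and 3 fell, among them Nr3c1, the glucocorticoid receptor (-0.49 ± 0.12). Of 10 thyroid hormone response genes 2 rose (Serpina7 and Thra, 0.51 ± 0.07) and 3 fell (Thrsp, Me1 and Thrb, -0.54 ± 0.09), Thrb not with the old arrays. Of 17 genes of branched-chain amino acid breakdown 2 rose (Bckdhb and Hibch, 0.48 ± 0.08) and 1 fell (Auh, -0.27 ± 0.05), the last not with the old arrays. Of 21 autophagy and lysosome genes 4 rose and 2 fell, with 1 higher in the model with the old arrays. Of 26 ribosome biogenesis genes 1 rose (Utp18, 0.40 ± 0.08), not with the old arrays, and none fell, while 1 was called lower with centred arrays or without control 7 or LA 2.

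Large shifts also fell on genes outside these lists. Poteml2, an ankyrin repeat gene of the array annotation, read 2.89 to 6.30 (median 3.81) and 8.12 to 10.46 (median 9.75) and rose by 5.46 ± 0.45 (adjusted p = 3.11e-07). Chrna2, a nicotinic acetylcholine receptor subunit, read 2.82 to 5.19 (median 2.93) in the controls, where control 3 at 5.19 stood apart, and 3.94 to 8.33 (median 7.79) with LA, where LA 7 at 3.94 lay within the controls. Its control mean of 3.19 lay under the floor and its LA mean was 7.10, so it was at least 8.58-fold higher (adjusted p = 9.15e-05). Nim1k, a kinase related to AMPK, rose by 2.69 ± 0.32, Pcp4l1, a calmodulin-binding protein relative, by 2.56 ± 0.20, Tubb2a, a tubulin, by 2.46 ± 0.20 and Pbsn, probasin, by 2.27 ± 0.49. Kcnj15, a potassium channel, fell by 3.18 ± 0.33. Fbxl17l1, an F-box gene of the annotation, fell by 3.45 ± 0.60, from controls that split into 5 animals above 9 and 3 between 5.47 and 6.26.

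The LA effect was next set beside that in old rats, in a model of all 30 arrays with a term for the difference. It passed for 6 of 10589 genes (0.0567%), and 685 had an unadjusted p under 0.05. The young differences below keep the SE of the fit on the young arrays alone. The old SE and the p-values of the difference come from the model of all 30 arrays. Cpt1b rose by 2.85 ± 0.29 in young and had 0.34 ± 0.28 in old liver (adjusted p of the difference = 0.00144). Chrna2 (adjusted p of the difference = 0.00441) and Pcp4l1 (0.00032) rose in young liver and had both old groups under the floor, so that no old fold and no size of the difference between ages is given. Those p-values compare values at background. Nampt fell by 2.35 ± 0.16 in young and had -0.55 ± 0.19 in old liver (0.000844). Plaat3, a phospholipase, had -0.88 ± 0.09 and -0.01 ± 0.13 (0.0498), and Mapre3, a microtubule end-binding protein, -1.29 ± 0.10 and -0.49 ± 0.12 (0.0399), though a second probe set of Mapre3 gave 0.18 in young liver. In Cpt1b, Nampt, Plaat3 and Mapre3, which lay above the floor in all groups, the effect was the larger in young rats.

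For the rest, a difference between ages was not shown. Of the 157 genes called with over 2-fold change in young rats, 141 had the same sign in old rats and 150 a smaller size, the median size being 1.46 in young and 0.67 in old liver. These genes were chosen for their size in young rats, and some lay under the floor in old rats, so this is a description, with no test. Dbp had -3.04 ± 0.65 in old liver, Bmal1 2.24 ± 0.48, Per2 -3.13 ± 0.43, Elovl6 -2.09 ± 0.64 and Slc6a6 1.78 ± 0.54. Cdkn1a had 0.67 ± 0.42 (adjusted p of the difference = 0.0529). Sds had the opposite sign, 0.99 ± 1.06, and its difference between ages of 4.1 ± 1.44 did not pass (0.604).

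**Figure D5:**
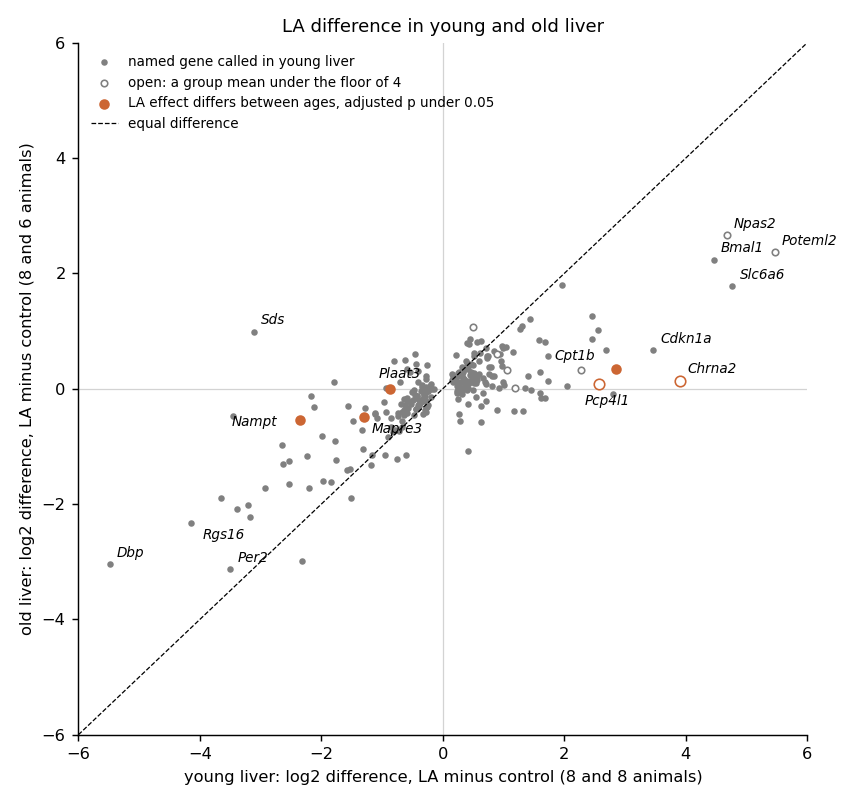
Log2 difference, LA minus control, in young liver (horizontal, 8 and 8 animals) and old liver (vertical, 8 and 6 animals) for the named genes called in young liver; the dashed line marks equal differences, and larger points are the 6 genes whose effect differed between ages, with open points where a group mean lay under the floor of 4. Most points lie between the horizontal axis and the dashed line, with Bmal1 at 4.46 and 2.24, Dbp at -5.49 and -3.04 and Cpt1b at 2.85 and 0.34.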

How the data were processed

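The 16 young arrays are 1 per animal, mapped to their groups by sample title. The authors deposited log2 values after GCRMA, a method of background correction, normalization and probe summary, which is named per the submitters' processing notes and whose version is not given in the sources used here. GCRMA leaves dim probe sets near a floor, so differences of dim genes are understated, and a fold is given as a bound where 1 young group's mean lay under a log2 value of 4. The table held 31099 probe sets, of which 57 were controls, 20826 named 1 gene, 436 several and 9780 none in GEO's platform annotation. Symbols were updated through RefSeq for 20758 probe sets, giving 14217 genes, and members of families with near-identical copies (Acot1 and Acot2, Obp3, Poteml2, and the Cyp, Sult and Ugt genes) are uncertain.

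Genes were kept where the log2 value exceeded 4 on at least 8 of the 16 arrays, and the probe set with the highest mean stood for its gene. The 2 young groups were fitted with limma 3.58.1 in R 4.3.3 (14 residual and 3.26 prior degrees of freedom), with Benjamini-Hochberg adjustment over 10589 genes at a threshold of 0.05. The contrast of ages used all 30 arrays. Exact permutation tests (Python 3.11.15, scipy 1.17.1) were two-sided, with a smallest possible p of 0.000155 for 8 against 8, and figures used matplotlib 3.10.9. The fits were tested on simulated data. Named genes were the 15 largest changes each way among genes called, up to 4 of each list with the smallest p, each clock gene and a few kept whatever their value, and others named after their values were seen. The members and lists were chosen with earlier results of these data known. Whether replicate numbers mark shared days or pair-fed partners is not given in the sources used here, and p-values measure the spread between animals. Alternatives covered the model, normalization, filter, probe set rule, variance model, array weights, replicate block and leaving out each array. Genes without a probe set of their own were not analysed here.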

Additional observations from a re-analysis of the deposited data

Results flagged for a closer look

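Among 313 genes, 626 sets of 8 animals were searched for an animal standing apart from the other 7, and 38 had one. Chance gives about 1 in 20, so the number flagged was near that of chance. Control 5 stood highest among the controls in lipid synthesis genes: Fasn at 12.73 (next 10.65), Pnpla3 at 12.29 (next 8.27), Me1 at 12.05 (next 10.97) and Pgd at 11.51 (next 10.33), and also in Mapre3 at 8.17, while it was lowest in Acadm at 13.78. Control 3 stood lowest in the ER chaperone genes Hsp90b1 at 13.5 and Manf at 12.56, in Tst at 13.74 and in Kcnj15 at 6.59, and highest in Chrna2 at 5.19, where the next control read 3.04. The remaining controls that stood apart were control 1 in Cdk1 (5.16, highest), Slc39a4 (10.13, lowest) and Utp18 (5.6, lowest), control 6 in Cp (15.7, lowest) and Ccne1 (6.2, highest), control 7 in Tef (9.31, lowest), and control 8 in Pck1 (14.32, lowest), Elovl5 (13.12, lowest) and Csnk1e (5.59, highest).

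Among the LA animals, LA 4 was the lowest in Npas2 at 8.07 and in Poteml2 at 8.12 and the highest in Per3 at 5.49. LA 1 was the highest in Dhcr7 at 11.41, Akr7a3 at 11.82, Acss2 at 10.77 and Abcg8 at 7.95, and the lowest in Cry2 at 6.16. LA 5 was the highest in Insig2 at 14.51, Srsf5 at 12.01 and Chac1 at 8.29, and the lowest in Klf9 at 11.66 and Creld2 at 9.23. LA 7 was the lowest in Pbsn at 7.54, Ugt2b35 at 14.67 and Bst2 at 11.22, LA 2 the highest in Csad at 12.66, and LA 8 the lowest in Pdhb at 11.76.

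The effect of LA differed between ages in 6 genes by the interaction term in limma, given as the old minus the young effect with its SE and adjusted p. It was -2.51 ± 0.385 for Cpt1b (adjusted p = 0.00144), 1.81 ± 0.263 for Nampt (0.000844), 0.867 ± 0.174 for Plaat3 (0.0498) and 0.809 ± 0.158 for Mapre3 (0.0399). For Chrna2 the fitted -3.77 ± 0.627 (0.00441) and for Pcp4l1 the fitted -2.48 ± 0.33 (0.00032) rest on old groups with means under the floor of 4, and for Chrna2 on young controls under it as well, so these are no measured sizes. What underlies these animals and genes was not tested.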

How the results depend on the processing

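The number of genes called (1730, with 878 higher and 852 lower) was 687 (342 higher and 345 lower) in the model on all 30 arrays, and the cause was not tested. It was 1607 with arrays centred on their medians, 1920 after quantile normalization, 1635 with no filter, 1726 with a floor of 6, 1716 with the filter set over all 30 arrays, 1658 with probe sets averaged, 2148 with probe sets in place of genes, 1818 with a trended robust variance and 1924 with array weights. Leaving out 1 array in turn gave 1478 to 1823 genes (715 to 1022 higher and 740 to 958 lower). With the replicate number as a block, 2091 genes were called. Deviations of same-numbered animals correlated between 0.0667 and 0.291, over 0.1 in 7 of 8 pairs, beside a median of -0.008 over the other pairs. For 8 of 8 numbers the best match was their own. Same-numbered animals thus resembled each other more than other pairs did, but no source used here says what the numbers mark. The numbers were not taken as pairs, and the main p-values treat the animals as unpaired. Genes whose effect differed between ages numbered 5 with centred arrays, no filter or the replicate block within age and 6 with the trended robust variance. Of the 313 genes examined singly (294 with a floor of 6), none with a call changed direction in the settings run on genes, with probe sets in place of genes not among them. The model on all 30 arrays ended the call of 132 of the 313. Centred arrays ended the call of 11, quantile normalization of 5 and the replicate block of 15 (Ier2, Lias, Dld, Pgk1, Ddit3, Pik3r1, Oat, Cbr1, Slc10a1, Nr1h4, Lpl, Mylip, Sdhc, Hyou1 and Ccne1). Averaging probe sets ended the call of 5 (Akt1, Cp, Lpl, Sqstm1 and Bst2). Signal over background limits genes near the floor, such as Npas2 and Chrna2 in the controls.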
